A study of Mus musculus with 6 samples.

Results

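The 10 genes described here encode subunits of activator protein 1 (AP-1) and close relatives: Fos, Fosb, Fosl1, Fosl2, Jun, Junb, Jund, Atf3, Batf and Batf3. They were chosen by gene symbol, and all 10 were present among the 52636 genes of the deposited table. The RNA came from tumor cells sorted out of digested tumors that MC38, a mouse colon adenocarcinoma cell line, had formed under the skin of female mice aged 6 to 10 weeks. The 3 control libraries came from the M1E5 line marked Thy1.1, and the other 3 from an M1E5 line marked Thy1.2 in which Zfx, an X-linked zinc finger transcription factor gene, had been targeted with CRISPR ribonucleoprotein. None of the mice received a treatment, and the Thy1 mark changed together with the genotype. The labels name neither a sort marker nor a batch, and they do not say how many edited clones or mice stand behind a group, so the p-values rest on the spread among 3 libraries a group, which may be technical.

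AP-1 is a dimer of basic leucine zipper (bZIP) proteins. JUN proteins pair with each other or with FOS proteins, which do not pair among themselves, and the dimer binds a short palindrome (the TPA response element, TRE) or the related cyclic AMP response element (CRE). Fos, Fosb, Jun, Junb and Atf3 are immediate early genes, transcribed within minutes of growth factors, stress or tissue handling, whereas Fosl1 (FRA-1) and Fosl2 (FRA-2) respond later and remain high in cells with sustained ERK signaling. BATF and BATF3 lack a transactivation domain, pair with JUN proteins and are best known from lymphocytes and dendritic cells.

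Of the 10 members, 8 were higher under the Zfx-KO label, 0 were lower, and Fosl1 and Batf were not called (limma adjusted p under 0.05 over all 20094 genes tested). For comparison, 24.9% of all genes tested were called higher and 19.5% lower. The rise was at least 2-fold for 6 members (Fos, Fosb, Jun, Junb, Jund and Batf3), against 11.6% of all genes. The median log2 difference was 1.22 over the members and 0.09 over all genes tested. All 10 members passed the filter on low values, although Batf did so with 24 reads in all. The count of 8 became 7 without replicate 1 or replicate 3 of the libraries labelled Zfx-KO, in both cases because Atf3 lost its call.

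The region before the start of transcription is shown for the 4 members, of the 6 that rose at least 2-fold, whose window held one of the motifs searched. The windows of the other 2, Jund and Batf3, held none of them. RefSeq promoters (GRCm38.p6) matched 9 of the 10 members, all but Fosl1. Each line holds the 250 bases upstream of the RefSeq start on the coding strand. Positions are chr12:85473640-85473889 (plus) for Fos, chr7:19310046-19310295 (minus) for Fosb, chr4:95052223-95052472 (minus) for Jun and chr8:84978749-84978998 (minus) for Junb. Capitals mark TGACG, the core of a CRE, the TATAAA box, and in Jun the AP-1 like sequence TGACATCA.
Fos: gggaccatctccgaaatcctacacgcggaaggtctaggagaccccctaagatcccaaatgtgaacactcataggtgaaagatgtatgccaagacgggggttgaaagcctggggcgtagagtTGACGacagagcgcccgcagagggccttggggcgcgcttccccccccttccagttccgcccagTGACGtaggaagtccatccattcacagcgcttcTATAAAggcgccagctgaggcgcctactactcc
Fosb: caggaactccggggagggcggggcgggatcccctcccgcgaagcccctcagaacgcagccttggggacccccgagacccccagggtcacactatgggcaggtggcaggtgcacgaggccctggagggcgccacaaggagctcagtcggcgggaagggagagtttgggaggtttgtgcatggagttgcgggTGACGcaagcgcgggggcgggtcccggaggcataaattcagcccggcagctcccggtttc
Jun: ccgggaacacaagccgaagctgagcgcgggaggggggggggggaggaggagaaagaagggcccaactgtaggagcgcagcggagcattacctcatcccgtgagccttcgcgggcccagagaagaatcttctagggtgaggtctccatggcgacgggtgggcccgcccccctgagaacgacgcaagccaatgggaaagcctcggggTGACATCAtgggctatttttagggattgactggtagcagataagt
Junb: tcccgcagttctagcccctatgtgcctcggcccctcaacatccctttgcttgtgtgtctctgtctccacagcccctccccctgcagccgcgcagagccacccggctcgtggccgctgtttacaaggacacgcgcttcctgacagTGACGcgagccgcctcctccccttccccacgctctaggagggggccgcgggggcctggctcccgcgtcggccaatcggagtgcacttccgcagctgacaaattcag

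The core TGACG, on either strand, stood in 5 of the 9 windows (Fos, Fosb, Junb, Atf3 and Batf), and in 17.8% of all 32851 promoter windows of the same length. In Fos it occurred at 66 to 62 and at 129 to 125 bases before the start, and the TATAAA box, which 12.4% of all windows hold, at 33 to 28. In Fosb it lay at 60 to 56, in Junb at 106 to 102 and in Atf3, on the other strand, at 7 to 3 bases before the start. The RefSeq start used for Atf3, at 191183333, lies inside the gene model of the table, whose first base is 191218039. That used for Jund lies 1210 bases upstream of its gene model in the table. The Jund window, without a match, is therefore not the sequence next to the counted gene. The Jun sequence TGACATCA lay at 45 to 38, and 2.93% of all windows hold it on either strand. The full CRE TGACGTCA, the TRE TGACTCA, the serum response element and AGGCCT, the core of a motif described for ZFX, had 0 matches in the 9 windows. Their shares among all windows were 1.55%, 4.46%, 1.47% and 8.70%. The windows end at the start site, and elements farther away were not searched.

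Zfx itself was not lower in the edited line. It stood at 5.68, 5.88 and 5.46 log2 CPM (read counts scaled to library size, on a log scale) in the controls. Under the Zfx-KO label it was 6.30, 6.41 and 6.22. The difference was 0.64 (SE 0.10, limma adjusted p = 0.000473). The labels do not give the cut site, and reads per gene cannot show whether the edit removed the protein. The level of Zfx therefore does not check the labels, and every direction here refers to the label. Read totals were 42392848 to 42962578 in the controls, against 37763096 to 65050909 under the Zfx-KO label. The 10 members together took 0.164% to 0.197% of the reads in the controls and 0.331% to 0.354% in the other group. Of 12 colon epithelial markers Cdx2 had 0 reads and Epcam had at most 2 reads in any library. Krt18 and Krt20 had 0 reads in the controls, and Krt8 went from 5 to 2571 pooled reads. Of 7 markers tested, 2 were called higher, 0 lower and 5 had no call. The summed level of the list was 2.83 to 3.84 CPM in the controls and 17.3 to 23.6 in the libraries labelled Zfx-KO. Krt8, at a mean of 4.13 log2 CPM under the Zfx-KO label, makes up most of the sum there.

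Endothelial, pericyte and most fibroblast markers moved with the members, and most myeloid and lymphocyte markers were not called. All 20 endothelial and pericyte markers were called higher under the Zfx-KO label, with a median log2 difference of 3.54, and their summed level went from 335 to 394 CPM in the controls to 694 to 829. Cspg4 and Pdgfrb, chosen after their values were seen, had the levels that weigh most in the control sum, and differed by 0.62 and 0.27. The pericyte gene Abcc9 had 0 reads in every control, so it passed the filter only through the libraries labelled Zfx-KO, which fixed its direction. Kcnj8, Tie1 and Cldn5 had 0 reads in some controls. They too passed only with the libraries labelled Zfx-KO, which favored that direction. The count of 20 and the median include these genes. With equal medians 19 were higher. Of 15 fibroblast markers 11 were higher and 3 lower, with a median log2 difference of 3.75 and sums of 8501 to 10157 CPM in the controls and 15047 to 18194 in the other group, and none was at 0 in the controls. Col3a1, chosen after its value was seen, makes up most of the control sum, at 12.91 log2 CPM, and differed by 0.30. Thy1, the gene whose alleles mark the lines, is among the 11 (7.51 and 8.67 log2 CPM). The 3 lower markers, named after their values were seen, were Fbln1, Pdgfra and Pdpn (-0.98, -0.43 and -0.25). Among 18 myeloid markers, 1 of 16 tested was called higher, and the sums overlapped between groups, at 52.7 to 233 CPM in the controls and 93.4 to 262, with S100a9 at 0 reads in the controls. Of 15 T, NK and B cell markers 2 of 10 tested were higher, the sums were 0.559 to 0.991 CPM in the controls and 1.54 to 2.09 in the other group, and Ms4a1 had 0 reads in every library. In bulk samples a different share of cells and a different amount of RNA per cell cannot be told apart, and the part of these cells in the results on AP-1 was not tested.

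Fos, the founding member of the family, was higher under the Zfx-KO label. Its level on chromosome 12 (85473890 to 85477273, 4 exons, GRCm38) was 7.35, 6.97 and 7.70 log2 CPM in control replicates 1 to 3. Under the Zfx-KO label it was 8.75, 8.67 and 9.13. The groups did not overlap, and the lowest library of the higher group stood 0.97 log2 units above the highest control. The log2 difference was 1.51 (SE 0.17, limma adjusted p = 5.25e-05), a 2.85-fold rise.

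Fosb, on chromosome 7 (19302696 to 19310051, 4 exons), encodes a subunit that also exists as a short splice form, which read totals do not separate. It stood at 5.68, 5.61 and 6.25 log2 CPM in the controls, against 7.37, 7.53 and 7.81 under the Zfx-KO label. Of the 7 FOS and JUN genes it rose most, by 1.72 (SE 0.16, limma adjusted p = 1.47e-05), or 3.30-fold. For Fos and Fosb alike, control replicate 3 was the highest control and Zfx-KO replicate 3 the highest of its group.

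Fosl1, on chromosome 19 (5447703 to 5455945, 4 exons), did not follow. It encodes FRA-1, a FOS protein without the transactivation domain of FOS. Its level was 8.19, 8.11 and 8.22 log2 CPM in the controls, against 8.13, 7.78 and 7.99 under the Zfx-KO label. The groups overlapped, and the log2 difference was -0.20 (SE 0.08, limma adjusted p = 0.0746). The call depended on the scaling and on 1 library. Fosl1 was called lower when libraries were scaled to equal medians over all genes, which lowers every difference by 0.21. The difference was then -0.42 (limma adjusted p = 0.00346). It was also called lower with voom and TMM scaling (-0.24, adjusted p = 0.041) and without Zfx-KO replicate 1 (-0.29, adjusted p = 0.0258). The range over all settings was -0.42 to -0.11.

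Fosl2, on chromosome 5 (32135801 to 32157842, 4 exons), encodes FRA-2 and rose by a small amount. It stood at 8.14, 7.99 and 8.12 log2 CPM in the controls, against 8.48, 8.52 and 8.47 under the Zfx-KO label, without overlap. The log2 difference was 0.41 (SE 0.06, limma adjusted p = 0.000274), or 1.33-fold, and 0.20 with equal medians (adjusted p = 0.0279).

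**Figure D1:**
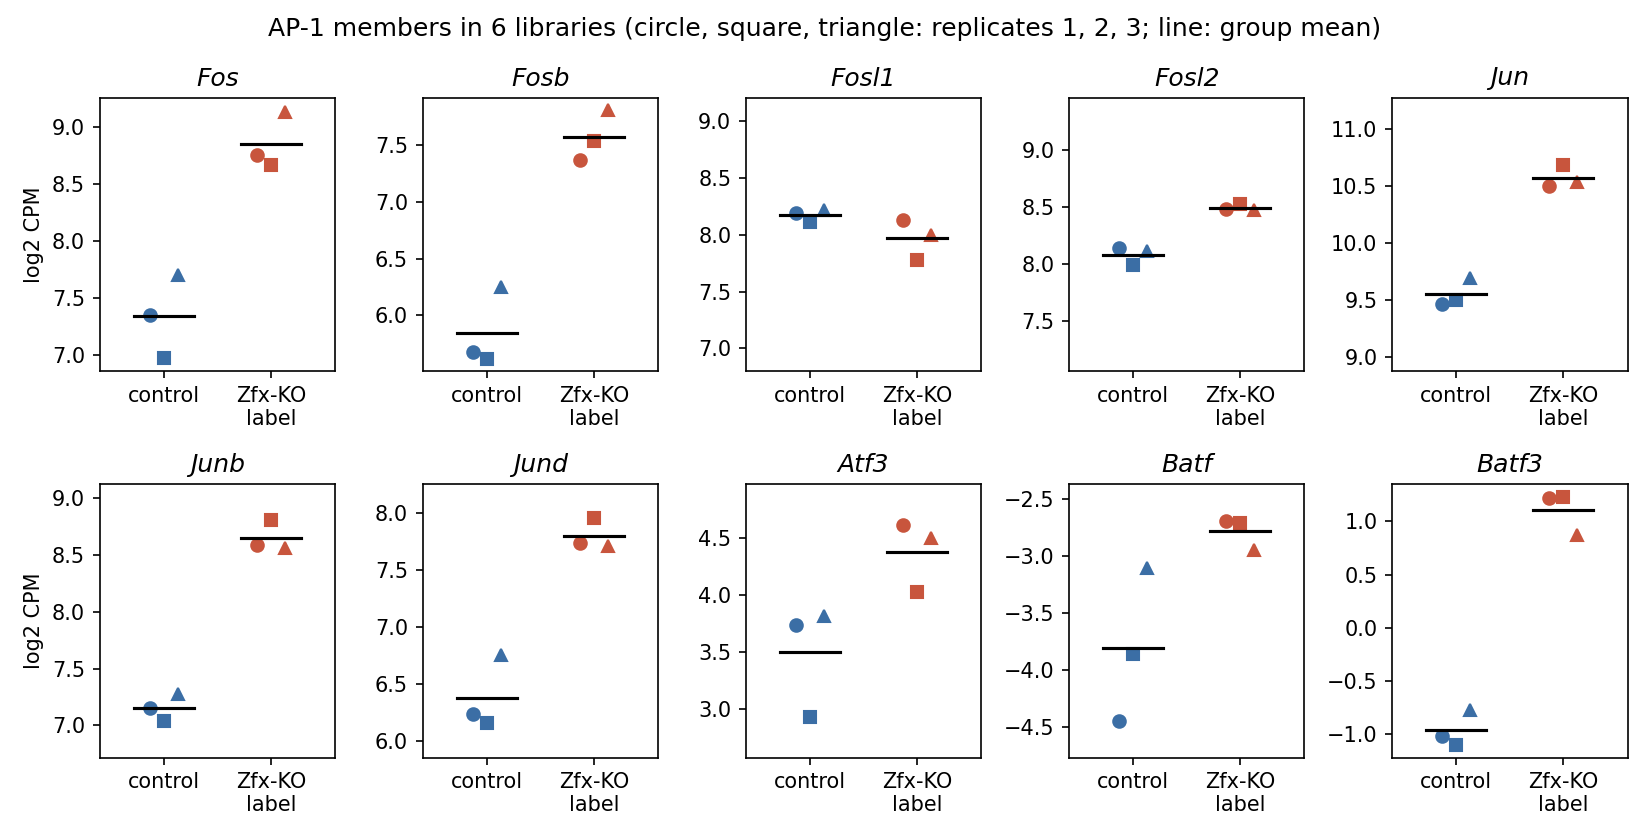
Level of each AP-1 member in log2 CPM (y axis, a separate scale per panel) in the control libraries (blue) and the libraries labelled Zfx-KO (red), with replicates 1, 2 and 3 as circle, square and triangle and the group mean as a line. The groups overlap for Fosl1 and stand apart for the other 9 genes, Batf resting on 24 reads in all.

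Jun was the most abundant member, also per length. It encodes JUN, which pairs with FOS proteins or with JUN proteins, from an intronless gene on chromosome 4 (95049034 to 95052222). Its level was 9.47, 9.50 and 9.70 log2 CPM in the controls, against 10.50, 10.69 and 10.54 under the Zfx-KO label. The groups stood 0.81 log2 units apart at their nearest libraries, and the difference was 1.02 (SE 0.08, limma adjusted p = 4.84e-06), or 2.03-fold. With equal medians it was 0.81, under 2-fold.

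Junb, on chromosome 8 (84976910 to 84978718, 1 exon), encodes a JUN protein that activates less than JUN and can oppose it. It had the smallest p-value of the members. Its level was 7.15, 7.04 and 7.28 log2 CPM in the controls, against 8.58, 8.80 and 8.56 under the Zfx-KO label, with a gap of 1.28 between the groups. The difference was 1.49 (SE 0.08, limma adjusted p = 5.35e-07), or 2.81-fold.

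Jund, also on chromosome 8 (70698949 to 70700616, 1 exon), encodes the JUN protein that most resting cells already hold. It stood at 6.24, 6.16 and 6.75 log2 CPM in the controls, against 7.74, 7.95 and 7.71 under the Zfx-KO label. It rose by 1.42 (SE 0.14, limma adjusted p = 1.97e-05), or 2.68-fold, and control replicate 3 was the high control, as for Fosb. The gene model of the table starts 1210 bases downstream of the RefSeq start, and 877 of its 1668 exon bases overlap the antisense gene Gm11175, which had 15 to 29 reads per library against 3061 to 13641 for Jund. Strand was not stated, so the reads of this pair may not be fully separated.

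Atf3, on chromosome 1 (191170296 to 191218039, 5 exons), encodes a stress-induced bZIP protein that pairs with JUN proteins. Its level was 3.74, 2.94 and 3.82 log2 CPM in the controls, against 4.62, 4.03 and 4.50 under the Zfx-KO label. Replicate 2 was the low library in both groups, and the highest control lay 0.21 below the lowest library of the other group. The difference of 0.88 (SE 0.23, limma adjusted p = 0.00938) passed the test, but not without Zfx-KO replicate 1 or 3 (adjusted p = 0.0577 and 0.0542) or without the variance trend (0.0712). The summed myeloid markers were also lowest in replicate 2 of both groups, at 233, 52.7 and 110 CPM in the controls and 262, 93.4 and 120 in the other group. Their part in the level of Atf3 was not tested.

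Batf3, on chromosome 1 (191098325 to 191108943, 3 exons), is required for type 1 dendritic cells in mice. Its gene lies 61352 bases from Atf3, with Fam71a as the protein-coding gene between them. It was scarce, with 20, 19 and 24 reads in the controls, against 87, 89 and 118 under the Zfx-KO label. In log2 CPM these were -1.02, -1.11 and -0.78 against 1.22, 1.23 and 0.88. The rise of 2.08 (SE 0.24, limma adjusted p = 6.31e-05) was the largest of the members called, and the ratio of pooled reads was 4.24 (95% exact interval 3.22 to 5.66, counting error only). The dendritic cell markers Xcr1 and Clec9a had at most 12 and 14 reads in any library and were not called. Of 8 type 1 dendritic cell markers, 2 of 6 tested were higher. Their summed level was 16.3 to 20.7 CPM in the controls and 32.8 to 38.4 in the other group, with Cd24a at 0 reads in the controls. Zbtb46, chosen after its value was seen, had a difference of -0.08 and Xcr1 and Clec9a of -0.15 and -0.90, all without a call, so that the difference in the sum is mainly that of Wdfy4. The part of these cells in the level of Batf3 was not tested. Wdfy4, needed for cross-presentation by these cells, rose from 2.34 ± 0.38 to 4.34 ± 0.21 log2 CPM (SD, n = 3, limma adjusted p = 1.28e-05), and the integrin gene Itgae by 1.09 (SE 0.36, adjusted p = 0.0311), from 39 to 91 pooled reads, a call that did not hold under all settings (adjusted p from 0.016 to 0.377).

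Batf, on chromosome 12 (85686669 to 85709087, 3 exons), was close to absent. Its reads numbered 1, 2 and 4 in the controls, against 5, 5 and 7 under the Zfx-KO label. The log2 difference of 1.02 (SE 0.51) did not pass the test (limma adjusted p = 0.132), and the ratio of pooled reads was 2.21 with a 95% exact interval of 0.869 to 6.29.

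**Figure D2:**
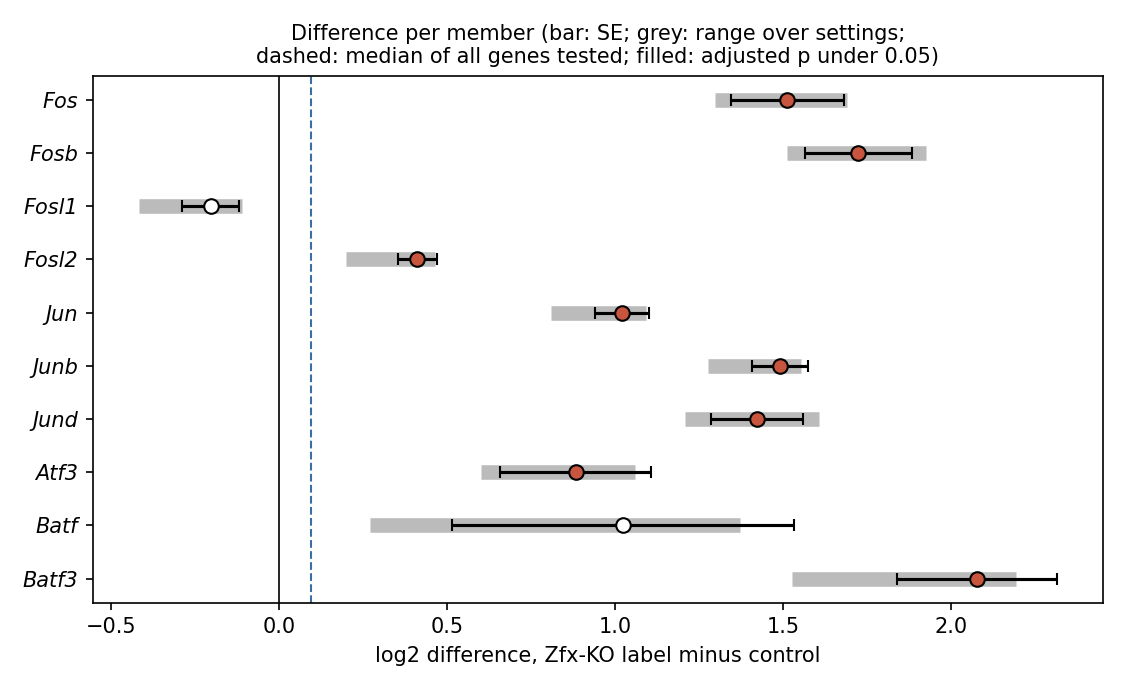
Log2 difference of each member, libraries labelled Zfx-KO minus control (x axis), with its SE as a black bar and the range over all settings as a grey bar. Filled points passed an adjusted p of 0.05; the dashed line is the median of all genes tested, 0.09. Fosl1 is the member to the left of 0, and Batf has the widest error.

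In 9 of the 10 members the libraries labelled Zfx-KO all stood above the controls, which held for 30.7% of all genes tested, and groups without overlap in either direction for 54.1%. An exact two-sided permutation test gives p = 0.1 for each of these 9, the smallest value that 3 against 3 libraries allow. For 7 of the 8 members called, the difference exceeded the range within both groups, and Atf3 was the exception, with a range of 0.89 log2 units among the controls.

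The controls were not interchangeable for these genes. Control replicate 3 was the highest control for 9 of the 10 members, against 31.0% of all genes tested, and replicate 2 the lowest for 8 of 10, against 35.8%. The spread was widest for Batf (7 reads) and then for Atf3, with replicate 2 at -0.56 from the control mean, for Fos, with replicate 2 at -0.37 and replicate 3 at 0.36, for Fosb, with replicate 3 at 0.40, and for Jund, with replicate 3 at 0.37. Fosl2 and Fosl1 varied least, by at most 0.09 among the controls. Among 26 other early response genes replicate 2 was likewise the lowest control for 20, and replicate 3 the highest for 15. In the libraries labelled Zfx-KO no single library led, with replicate 1 highest for 3 members, replicate 2 for 5 and replicate 3 for 2. Leaving out control replicate 3 gave differences of 1.69 for Fos, 1.92 for Fosb and 1.61 for Jund, and leaving out control replicate 2 gave 1.33, 1.61 and 1.31. The count of 8 members higher was the same without each control in turn.

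**Figure D3:**
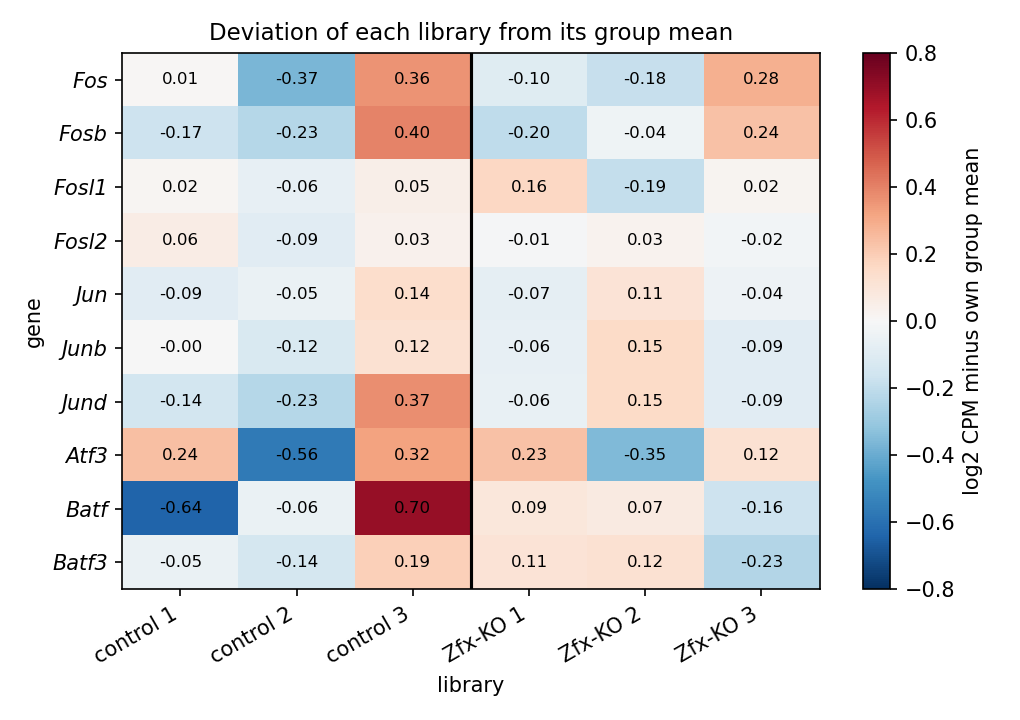
Deviation of each library (columns) from the mean of its own group, in log2 CPM, for each AP-1 member (rows), with red above and blue below the mean. The third control column is above the mean in every row and the second is below it in every row.

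Levels of different genes were compared as reads per kilobase of exon scaled to library size (RPKM). In the controls the order was Jun at 236 ± 21.0 RPKM (SD, n = 3), Fosl1 at 169 ± 6.52, Junb at 79.0 ± 6.71, Fos at 78.4 ± 19.5, Jund at 50.8 ± 12.0, Fosl2 at 41.5 ± 2.31, Fosb at 15.5 ± 3.95, Atf3 at 5.44 ± 1.65, Batf3 at 0.614 ± 0.078 and Batf at 0.057 ± 0.037. The ranges of Junb and Fos, of Fos and Jund and of Jund and Fosl2 overlapped, and the other neighbours stood apart in all 3 libraries. The order rests on exon length: with coding length the share of Fosl2 in the FOS family was above that of Fos in the controls (33.4% and 17.3%), as it was with no length (34.7% and 20.9%).

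In the libraries labelled Zfx-KO Fosl1 stood below Junb and Fos, which it had exceeded in the controls. The order was Jun at 479 ± 32.8 RPKM (SD, n = 3), Junb at 222 ± 21.2, Fos at 221 ± 39.5, Fosl1 at 147 ± 17.8, Jund at 134 ± 12.6, Fosl2 at 55.1 ± 1.06, Fosb at 50.6 ± 7.88, Atf3 at 9.83 ± 1.99, Batf3 at 2.68 ± 0.36 and Batf at 0.129 ± 0.015. The ranges of Junb and Fos, of Fosl1 and Jund and of Fosl2 and Fosb overlapped.

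Within the FOS family the shares of transcripts shifted, with Fosl1 the largest in the controls and Fos under the Zfx-KO label. A share also falls when other members rise, as Fos and Fosb did, and Fosl1 itself was not called. Fosl1 made up 56.1%, 59.2% and 52.0% of the family's reads per kilobase in the controls, against 35.1%, 30.2% and 28.2% under the Zfx-KO label. Fos made up 25.4%, 21.8% and 29.4% in the controls and 43.8%, 45.2% and 50.4% in the other group. The share of Fosb went from 5.05% ± 0.82 to 10.7% ± 1.16 (SD, n = 3), also without overlap between groups. The share of Fosl2 was 13.7% ± 0.89 and 11.7% ± 1.47 and overlapped. These shares compare genes within a library, so the scaling between libraries cannot change them.

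Within the JUN family the shift was smaller. The share of Jun went from 64.6% ± 1.53 to 57.4% ± 0.81 (SD, n = 3) and that of Junb from 21.6% ± 1.00 to 26.6% ± 0.51, both without overlap. Jund stood at 13.8% ± 1.72 and 16.0% ± 0.30, with control replicate 3 inside the range of the other group.

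The summed JUN transcripts differed more between the groups than the summed FOS transcripts. Summed over 3 genes, JUN transcripts went from 366 ± 38.7 to 836 ± 66.0 RPKM (SD, n = 3), and the 4 FOS genes from 304 ± 31.1 to 474 ± 51.5. The log2 ratio of FOS to JUN was -0.18, -0.33 and -0.29 in the controls, against -0.77, -1.10 and -0.60 under the Zfx-KO label. Of the 8 quantities compared (7 shares and this ratio), 6 did not overlap between groups and reached p = 0.1 in an exact two-sided permutation test, the smallest possible, with an adjusted p of 0.133 over the 8. The shares of Fosl2 and Jund gave an exact permutation p of 0.2. With coding length in place of exon length the share of Fosl1 was 42.5% ± 2.22 in the controls and 24.2% ± 2.81 in the other group, and that of Fosl2 33.4% ± 1.75 and 29.1% ± 2.82.

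**Figure D4:**
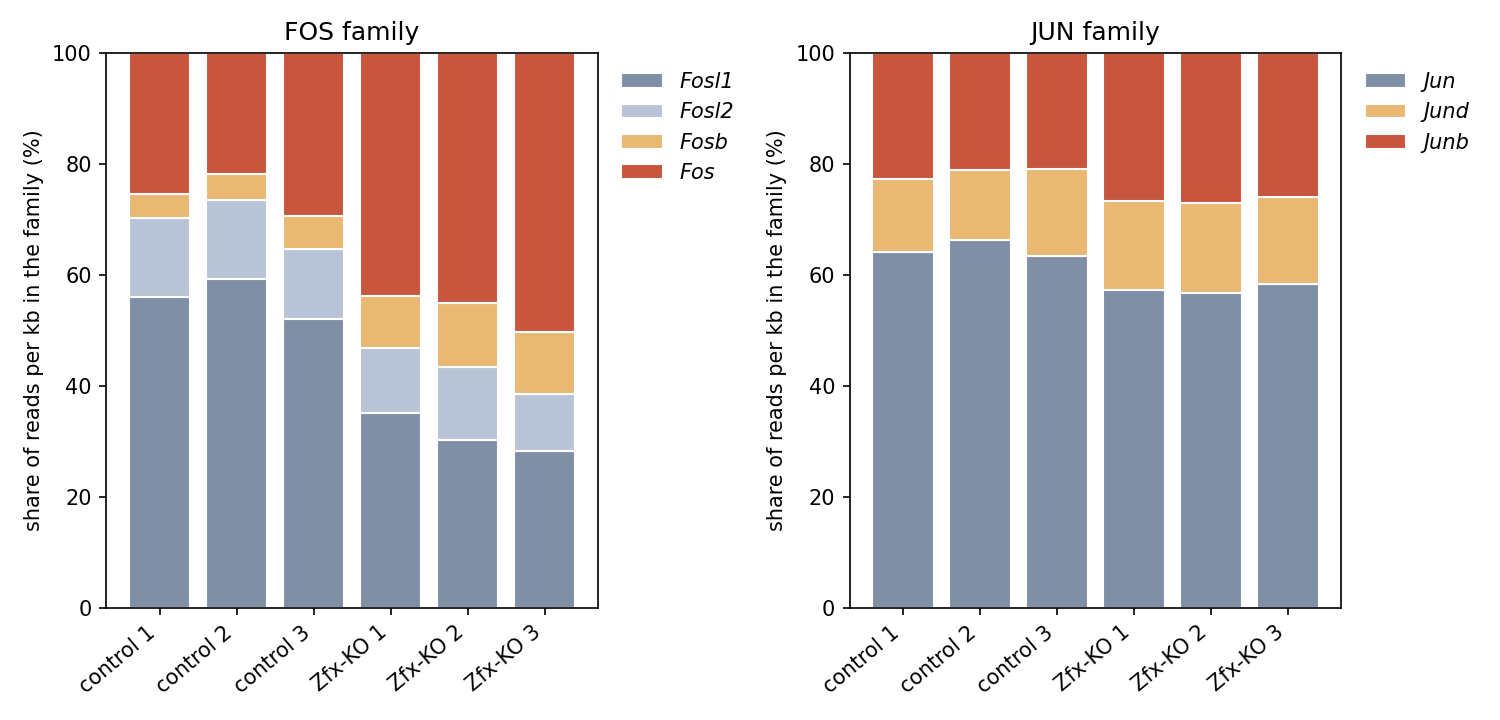
Share of each gene in the reads per kilobase of the FOS family (left) and the JUN family (right), in percent (y axis), for each library (x axis). Fosl1 is the largest FOS segment in the 3 controls, at 52.0% to 59.2%, and Fos in the 3 libraries labelled Zfx-KO, at 43.8% to 50.4%.

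The kinases and factors that feed into AP-1 did not move as a block. Of 20 genes of the MAPK and SRF inputs, 7 were higher and 5 lower, and the median log2 difference was -0.01, against 0.09 over all genes. Of all genes tested 24.9% were called higher and 19.5% lower, shares to set beside the counts of this and the following lists. Map2k4, a kinase that activates JNK, stood at 6.44 ± 0.07 log2 CPM in the controls (SD, n = 3) and was lower, at 4.82 ± 0.12, under the Zfx-KO label (limma adjusted p = 1.77e-07). Mapk9, which encodes the JUN kinase JNK2, fell by 0.98 (SE 0.07, limma adjusted p = 2.66e-06), while Mapk8, encoding JNK1 and named after its value was seen, had a difference of -0.07 and no call. The other JNK pathway kinases named by the rule rose: Map3k1 by 0.83 (SE 0.09, limma adjusted p = 3.83e-05) and Map2k7 by 0.39 (SE 0.06, limma adjusted p = 0.000413). With equal medians 2 of the list were higher and 11 lower.

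Feedback inhibitors of MAPK signaling and of early transcripts moved both ways, with 4 of 16 higher and 5 lower and a median log2 difference of 0.03. The share higher was near the 24.9% of all genes tested. Dusp1, the phosphatase that switches off JNK and p38 and is itself an early gene, rose by 2.69 (SE 0.18, limma adjusted p = 1.61e-06). Zfp36, which destabilizes early response transcripts, rose by 1.82 (SE 0.14, limma adjusted p = 4.66e-06) and the JNK phosphatase gene Dusp8 by 1.16 (SE 0.11, adjusted p = 1.87e-05). The ERK pathway inhibitor gene Spry4 fell by 1.13 (SE 0.11, limma adjusted p = 1.64e-05). The other lower genes, named after their values were seen, were Dusp4, Itch, Spred1 and Rfwd2 (-1.92, -0.82, -0.40 and -0.35). The remaining higher gene, also named later, was Zfp36l1 (0.67).

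The other bZIP genes and partners showed no common rise. Of 25 genes 5 were higher and 9 lower, with a median log2 difference of -0.10, and with equal medians 15 were lower. Batf2, a relative of Batf, rose from 1.81 ± 0.40 to 3.72 ± 0.04 log2 CPM (SD, n = 3, limma adjusted p = 1.61e-05). Irf4, whose protein binds DNA jointly with BATF and JUN in lymphocytes, had 1 read in the controls together and 130 in the libraries labelled Zfx-KO. It is among the 5 higher genes, but it passed the filter only through the libraries labelled Zfx-KO. That fixed its direction, so no p-value is given for it. Nfatc1, a partner of AP-1 in lymphocytes, fell by 0.72 (SE 0.07, limma adjusted p = 2.81e-05), and Atf5 by 0.47 (SE 0.05, adjusted p = 5.71e-05). Jdp2, named after its value was seen, is the only protein-coding gene between Fos and Batf on chromosome 12 and encodes a JUN dimerization protein that represses AP-1. It went from 7.70 ± 0.11 to 7.46 ± 0.10 log2 CPM (difference -0.24, SE 0.07, limma adjusted p = 0.0203), while Fos beside it rose.

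Of 26 genes described as AP-1 targets, 17 were higher and 5 lower, and the median log2 difference was 0.68. Their summed level, set by the abundant genes, went the other way, from 3841 to 3937 CPM in the controls to 3660 to 3800. The matrix gene Tnc went from -0.50 ± 0.19 to 7.28 ± 0.19 log2 CPM (SD, n = 3, limma adjusted p = 1.06e-09). The metallothionein genes Mt2 and Mt1, which bind zinc and copper, rose by 1.89 and 1.64 (SE 0.06 each, limma adjusted p = 2.27e-08 and 4.04e-08). The 5 lower genes were Spp1 (osteopontin), which fell from 7.92 ± 0.12 to 6.43 ± 0.10 log2 CPM (SD, n = 3, limma adjusted p = 2.94e-07), and, named after their values were seen, Mmp9, Hbegf, Ccnd1 and Cd44, which fell by 1.23, 0.94, 0.55 and 0.33. Several of these genes are also made by fibroblasts, and of 15 fibroblast markers 11 were higher and 3 lower in the same libraries. The part of fibroblasts in the levels of these target genes was not tested. The matrix metalloprotease genes Mmp3 and Mmp13, named after their values were seen, had 4 and 22 pooled reads in the controls, against 2621 and 1421. Mmp3, and Mmp10 with 2 pooled control reads, passed the filter only through the libraries labelled Zfx-KO. The count of 17 higher includes both, and the filter favored that direction for them. With equal medians 15 were higher and 7 lower.

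Other early response genes rose alongside Fos and Jun. Of 26 tested, 23 were higher and 1 lower, and the median log2 difference was 1.06. The count higher was 23 under every setting, and 2 were lower with equal medians. Gadd45b, a stress sensor, rose by 1.57 (SE 0.09, limma adjusted p = 8.16e-07), the Kruppel-like factor gene Klf6 by 1.09 (SE 0.07, adjusted p = 8.94e-07), Nfkbia, whose product holds NF-kappaB in the cytoplasm, by 0.87 (SE 0.05, adjusted p = 1.06e-06) and Ctgf, a matricellular protein gene, by 5.17 (SE 0.34, adjusted p = 1.49e-06). The lower gene was Egr3, at -1.14, and Myc and Sgk1 were not called (0.06 and -0.08); these 3 were named after their values were seen. Heat shock genes linked to dissociation were mixed, with 5 of 12 higher and 1 lower. Hspb1, named after its value was seen, is among the 5 but had 1 read in the controls together. It passed the filter only through the libraries labelled Zfx-KO. Hspa1a rose by 1.81, with a near-identical copy that leaves its count uncertain, Dnajb1 rose by 0.82 (SE 0.11, limma adjusted p = 0.000226) and Hspd1 fell by 0.57 (SE 0.08, adjusted p = 0.000248). The tumors had been digested enzymatically before sorting, and the part of tissue handling in these levels was not tested.

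Other genes with a pattern like a member were found by the root mean square difference of log2 values, each centred on its mean over the 6 libraries, among 12412 candidate genes. The nearest to Jun was Ier5, another early response gene, at 0.04 log2 units, followed by Plpp5 and Abca7 at 0.05 each. The nearest to Fosb were Lpin3 at 0.08, Egr1 at 0.12 and Col18a1 at 0.12, and to Jund Nr4a3 at 0.11. Fos lay nearest to Ccdc162 at 0.09, Junb to Fam53b at 0.07 and Batf3 to the endothelial gene Plvap at 0.13. Fosl2 lay nearest to Fkbp7 at 0.01, Fosl1 to Zfp64 at 0.03 and Batf, at its few reads, to Elovl3 at 0.12. Among the members, Junb and Jund were closest to each other, at 0.13, then Fos and Fosb at 0.16, and Fosl1 and Batf3 were farthest apart, at 1.15. The distances describe 6 libraries and were not tested.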

How the data were processed

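RNA from sorted tumor cells was sequenced in 6 libraries, grouped by the genotype label and numbered in accession order. The authors deposited log2 values per gene, with exon coordinates and an exon length. The submitters' processing notes name GRCh38 and mm10 without a role, and which aligner and counter were run is not given in the sources used here. Deposited values shared a floor of -5.49 and were read as log2 CPM with a prior of 1 read on average. All low values (under 2000 reads) then gave whole reads within 0.05, and these reads were used for totals, RPKM, pooled ratios and voom. The table held 0 columns of other samples. Chromosomes and coding lengths came from GENCODE M21, start and end from the table.

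A gene was tested if 3 or more libraries exceeded the floor and its mean lay 1 log2 unit or more above it (20094 genes). Groups were compared with limma 3.58.1 in R 4.3.3 (empirical Bayes, intensity trend, two-sided, Benjamini-Hochberg over all genes kept, threshold 0.05). The test was run on simulated data in which few genes changed, all upward, with the same setting of spread for every gene. That differs from these data, so the simulation gives no error rates for them. Intervals cover counting error only, and 3 reads correspond to 0.0461 to 0.0794 CPM. Fold changes carry the prior, which understates those of scarce genes. Promoters came from RefSeq (GRCm38.p6), and motifs were searched on both strands with Python 3.11.15; exact tests used scipy 1.17.1 and figures matplotlib 3.10.9.

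The members, gene lists and tests were chosen with earlier results of these data known. The text names the members, Zfx, up to 4 genes with the smallest p from each list (2 where none passed) and the 3 genes nearest to each member; other names are said to be chosen later, apart from marker genes given as checks of cell type. Some genes that this rule names are not reported here. Of 2 rows for Map2k7, the one with more reads was used. Alternatives were other filters, scalings, variance settings, priors, voom with TMM scaling, gene lengths and leaving out each library.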

Additional observations from a re-analysis of the deposited data

How the results depend on the processing

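No paired analysis was possible because the labels give no replicate numbers, and those used here only name the libraries in accession order. The count of members higher was 8 under most alternatives and 7 without the variance trend and without replicates 1 and 3 of the libraries labelled Zfx-KO. Leaving out 1 library gave 7 to 8 higher and 0 to 1 lower. The count lower was 0 as reported and 1, Fosl1, with equal medians and with voom. Over 17 settings the log2 differences ranged from 1.30 to 1.69 for Fos, 1.51 to 1.92 for Fosb, 0.81 to 1.09 for Jun, 1.28 to 1.55 for Junb, 1.21 to 1.61 for Jund, 0.20 to 0.46 for Fosl2, 0.60 to 1.06 for Atf3 and 1.53 to 2.19 for Batf3, with no change of sign. Batf had 16 settings, since the stricter filter removed it, and ranged from 0.27 to 1.37 with no call. Equal medians lowered every difference by 0.21. The family shares and the FOS to JUN ratio kept their direction with coding length, with no length and without each library. With 3 libraries a group, exact tests cannot go below 0.1, and Batf, at 24 reads, is limited by depth.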
